A study of Caenorhabditis elegans with 139 samples.

Results

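The long intergenic noncoding RNAs (lincRNAs) of Caenorhabditis elegans were followed through embryogenesis in single embryos. They are all rows of the count table whose name starts with linc, 170 of 20687 gene rows, chosen by name and not by any measured value. Of these, 169 match, by their number, an annotated lincRNA of Ensembl release 115, where linc005 is written linc-5, and linc132 does not. The annotation places them on all 6 chromosomes, 21 on chromosome I, 34 on II, 22 on III, 26 on IV, 33 on V and 33 on X. The sources used here do not give the genome build of the files, so the annotation serves for names, chromosomes and gene order, with no coordinates.

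A lincRNA is a long transcript from a region between protein-coding genes that shows no sign of encoding a protein, although many are capped, spliced and given a poly(A) tail like an mRNA. Most have no assigned role, and the class is known for low levels and for expression restricted to particular tissues or stages. RNA was amplified by CEL-Seq, which primes on poly(A) tails, tags each embryo with a barcode and reads the 3′ ends of transcripts. A lincRNA without such a tail is therefore outside the measurement.

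The series holds 139 embryos, 1 per library, at 86 distinct labelled times from -50 to 840 min relative to the 4-cell stage. Embryos were cut from adult worms grown by standard methods and left to develop before freezing, and the labels used here name no strain, mutation or drug. They were placed in 7 windows: T1, -50 to 30 min (n = 17); T2, 40 to 100 min (n = 11); T3, 110 to 190 min (n = 13); T4, 200 to 290 min (n = 30); T5, 300 to 390 min (n = 18); T6, 400 to 590 min (n = 25); and T7, 600 to 840 min (n = 25). No label says that embryos of a window came from separate mothers, so p-values measure the spread between these embryos. The whole embryo was measured, so fewer cells of a type and less RNA per cell cannot be told apart.

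Depth was uneven, with 12338 to 4557314 gene counts in an embryo (median 692649), and 13 embryos had under 100000, 6 of them in T1, 3 in T4, 3 in T5 and 1 in T7. In such an embryo 1 count is worth up to 81.1 CPM (gene counts scaled to 1000000 per embryo), against a median of 0.670 to 2.54 CPM across the windows. The title numbers fall into 5 blocks of consecutive numbers with separate time series, with no batch named in the labels. Block 1 holds the whole of T7 (25 embryos) and 18 embryos of T6, so age and block cannot be told apart late in the series, while block 5 runs from -50 to 420 min in 45 embryos. In 7 embryos the time predicted from the other embryos' profiles missed the label by more than 100 min, 5 of them in T4, 1 in T5 and 1 in T6, and the tests and the main descriptions were also computed without them. Summed levels of the stage marker lists followed the labels: maternal transcripts (pos-1, oma-2, zif-1, nos-2, mex-5) had their highest median in T1, early zygotic ones (end-1, sdz-26, ceh-51, tbx-37, med-1) in T2, tissue fate regulators in T4 and differentiated muscle and neuron genes in T7.

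Most lincRNAs were detected somewhere in the time course, at low levels. At least 1 count was found for 83.5% of the 170, and 28 had none (16.5%). Of 19397 protein-coding rows, 92.0% had a count and 8.01% had none. Counts in at least 10 embryos were found for 76 lincRNAs (44.7%) against 72.6% of protein-coding rows, and counts in at least 70 embryos for 12 (7.06%) against 40.9%. The median over rows of the mean level was 0.200 CPM for lincRNAs and 3.95 CPM for protein-coding rows. No length was divided out, since reads come from 3′ ends. A total of 129 lincRNAs (75.9%) averaged under 1 CPM, as did 37.8% of protein-coding rows, and 9 lincRNAs were seen in a single embryo. For a row with no count in any window, 3 counts over the group would correspond to 0.116 CPM in T5, the most deeply sequenced window, and to 0.277 CPM in T2, so these rows are below that level and not shown to be silent. Intervals and floors of this kind cover counting error only, and a floor is one of the row and not of the gene. The row linc001 had no count, while W09C5.11, which is also annotated as linc-1, had 164.

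**Figure D1:**
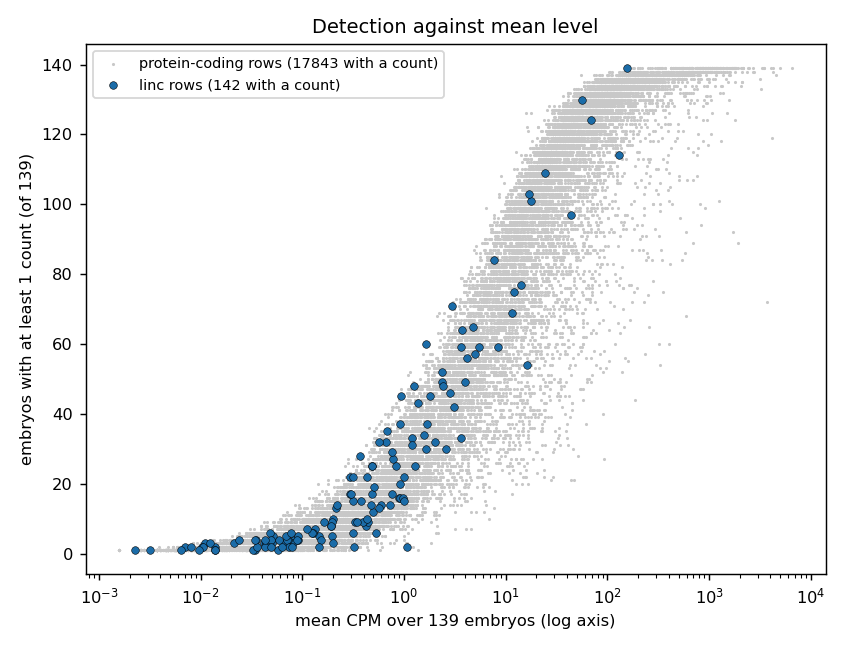
Number of embryos with at least 1 count (y axis, of 139) against the mean CPM over all embryos (x axis, log scale) for each lincRNA row (blue) and each protein-coding row (grey) that has a count. The lincRNAs lie inside the cloud of protein-coding rows and crowd its lower left, with 12 at a mean of 10 CPM or more.

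Set beside protein-coding rows of similar mean level, the lincRNAs were found in about as many embryos. Between 0.1 and 1 CPM, 57 lincRNAs had counts in a median of 14 embryos and 3329 protein-coding rows in 11. Between 1 and 10 CPM the medians were 48 embryos for 29 lincRNAs and 45 for 4115 protein-coding rows. Between 10 and 100 CPM they were 99 embryos for 10 lincRNAs and 108 for 5864 protein-coding rows. Against the median of protein-coding rows in its own bin of mean CPM, each bin spanning a factor of the square root of 10, 71 lincRNAs were seen in more embryos, 52 in fewer and 19 in the same number. The median difference within bins was 0.5 embryos. Counts in all 7 windows were present for 32 lincRNAs (22.5% of those with a count) and for 57.4% of protein-coding rows with a count, and counts in a single window for 12 lincRNAs (8.45%) and 6.82% of protein-coding rows, without matching for level.

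Reads of the class came from few members. The 170 rows held 76206 counts, 0.0608% of all gene counts. linc005 alone held 23.6% of them, the 5 rows with most counts held 62.7% and the 12 rows with most counts 82.0%. Per embryo the lincRNA share of gene counts was 0.0360 ± 0.0411% in T1 (SD, n = 17), 0.0716 ± 0.0376% in T2 (n = 11) and 0.0769 ± 0.0197% in T3 (n = 13). It was 0.0797 ± 0.0382% in T4 (n = 30), 0.121 ± 0.0812% in T5 (n = 18), 0.0637 ± 0.0474% in T6 (n = 25) and 0.0361 ± 0.0215% in T7 (n = 25). The highest mean was thus in T5 and the lowest means at the 2 ends, and the ranges of all windows overlapped. Without the embryos under 100000 gene counts the T1 share was 0.0123 ± 0.00564% (n = 11) and the T5 share 0.0894 ± 0.0237% (n = 15), and without linc005 the T5 share was 0.0792 ± 0.0726%. Without the embryos of missed time it was 0.0782 ± 0.0258% in T4 (n = 25), 0.110 ± 0.0682% in T5 (n = 17) and 0.0559 ± 0.0276% in T6 (n = 24). Within block 5 the share was 0.0581 ± 0.0618% in T1 (n = 6), 0.0802 ± 0.0182% in T4 (n = 10), 0.126 ± 0.0777% in T5 (n = 10) and 0.0879 ± 0.0326% in T6 (n = 3). Within block 1 it was 0.0444 ± 0.0159% in T6 (n = 18) and 0.0361 ± 0.0215% in T7 (n = 25), a smaller difference than that between the window means over all blocks.

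The number of lincRNAs seen per embryo followed the same course when depth was held equal. After each embryo was thinned to 100000 gene counts, a median of 5 lincRNAs was seen in T1 (range 1 to 7, n = 11), 12 in T2 (7 to 18, n = 11) and 17 in T3 (10 to 24, n = 13). Medians were 19 in T4 (7 to 24, n = 27), 19 in T5 (13 to 22, n = 15), 13 in T6 (6 to 24, n = 25) and 11.5 in T7 (4 to 19, n = 24). The ranges of T1 and T3 did not overlap. As a share of all genes seen in a thinned embryo, lincRNAs made up 0.0796% in T1, 0.262% in T3, 0.261% in T4 and 0.165% in T7. Without the embryos of missed time the medians were 19 in T4 (n = 23), 19 in T5 (n = 15) and 13.5 in T6 (n = 24). At their own depth the medians were 14 lincRNAs per embryo in T1 and 41 in T3.

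Timing was described for the 88 lincRNAs with at least 20 counts in all and counts in at least 5 embryos, by the window with the highest mean CPM. That window was T1 for 3 lincRNAs, T2 for 10, T3 for 11, T4 for 11, T5 for 21, T6 for 23 and T7 for 9. In percent, 3.41% of lincRNAs had their highest window in T1 and 10.2% in T7. Protein-coding rows under the same minimum, weighted to the same bins of mean CPM, had 9.30% in T1 and 30.6% in T7. In T5 the shares were 23.9% of lincRNAs and 10.9% of protein-coding rows, and in T4 12.5% and 6.36%. These shares are a description with no test. They also rest on the use of means: with the median over the labelled times of a window in place of the mean, 70 lincRNAs had a highest window and it was T6 or T7 for 2 of them, against 32 of 88 by the mean, and with a minimum of 50 counts in 10 embryos it was T6 or T7 for 17 of 63.

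**Figure D2:**
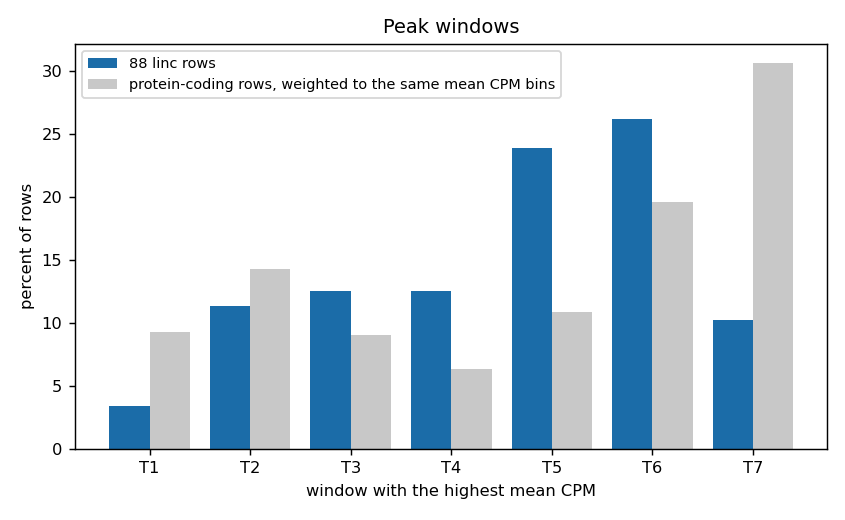
Percent of rows (y axis) whose highest mean CPM falls in each window (x axis) for the 88 lincRNAs (blue) and for protein-coding rows weighted to the same bins of mean CPM (grey). The lincRNA bars exceed the grey bars from T3 to T6 and are lower in T1, T2 and T7, with 10.2% against 30.6% in T7.

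The CPM-weighted mean minute of a row gives a second view of timing. Its median was 406 min over the 88 lincRNAs and 394 min over the protein-coding rows. Within bins of mean CPM, 55 lincRNAs had an earlier weighted mean than the protein-coding median and 33 a later one, with a median difference of -45.7 min. Without the embryos of missed time 56 were earlier and 32 later, with a median difference of -45.1 min. How narrow the profiles are was measured by tau, which is 0 for equal means in all windows and 1 for a row seen in a single window. Median tau was 0.839 for lincRNAs and 0.848 for protein-coding rows between 0.1 and 1 CPM, 0.708 and 0.805 between 1 and 10 CPM, and 0.734 and 0.663 between 10 and 100 CPM. A tau of at least 0.9 was reached by 16 lincRNAs (18.2%), by 17 without the embryos of missed time, and by 27.1% of the weighted protein-coding rows. Low counts bear on these shapes: in 27 of the 88 lincRNAs (30.7%) a single embryo held over 50% of the summed CPM of the highest window, as in 30.1% of the weighted protein-coding rows.

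**Figure D3:**
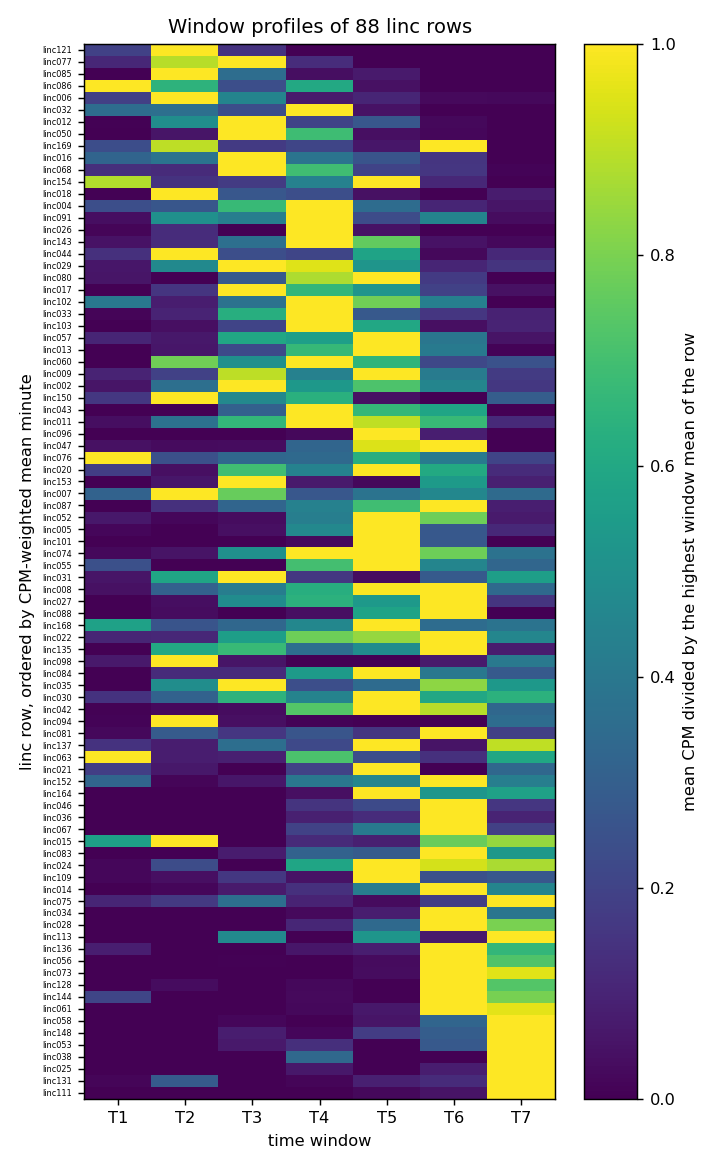
Mean CPM of each of 88 lincRNAs (rows, ordered by CPM-weighted mean minute) in the 7 windows (columns), divided by the highest window mean of that row, from dark (0) to bright (1). The bright cells run from T2 and T3 at the top to T6 and T7 at the bottom, and T5 and T6 hold the highest window of 44 rows.

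Differences among the 7 windows were tested over all 20687 rows with edgeR's quasi-likelihood F-test, in which a filter on low counts left 9923 rows and 19 of the 170 lincRNAs. The other lincRNAs had too few counts for it. All 19 were called (p-values adjusted by Benjamini-Hochberg, threshold 0.05), where 93.8% of all rows tested were called, so the count is near the background. The largest adjusted p of the 19 was 0.0125 for linc168, and the next was 1.13e-05 for linc002. Without the filter 119 lincRNAs were called among those with a count, against 85.8% of all rows with a count. In the following paragraphs lincRNAs are ordered by the window of their highest mean, and a step between consecutive windows is called where the adjusted p is under 0.05 and the fold is 2 or more. The fitted fold weights embryos by depth and can differ from the ratio of window means, which shallow embryos raise.

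From T1 to T2, 3 of 4 lincRNAs tested rose and none fell, where 15.1% of all rows tested rose and 14.5% fell. The risers had T1 medians of 0 CPM (linc077), 11.8 CPM (linc006) and 12.6 CPM (linc007). They passed the filter on low counts mainly through T2, so this count does not show a direction of the class. Among the 4 tested, the count of falls at an unadjusted p under 0.05 was also 0, and DESeq2 likewise called 3 rises and 0 falls. linc006, on chromosome X, was at 0 to 333 CPM (median 11.8, n = 17) in T1 and at 39.3 to 814 CPM (median 140.1, n = 11) in T2. All 11 embryos of T2 lay above the T1 median and 3 above every embryo of T1, among which the highest values belong to shallow embryos with up to 10 counts of linc006. It rose by 3.89 ± 0.74 on the log2 scale, adjusted p = 1.53e-04. In the 11 deeper embryos of T1 its mean was 10.6 ± 12.6 CPM.

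In block 5, which has an embryo every 10 min from 0 min on, linc006 was at 15.7 CPM at 10 min, 83.7 CPM at 40 min and 223 CPM at 60 min. It was highest at 80 min, at 814 CPM in 1 embryo, and at 389.5 CPM at 100 min. By 150 min it had come down to 86.7 CPM, and at 190 min it was at 27.5 CPM. The fall was called in both following steps. From T2 to T3, where it was at 17.8 to 245 CPM (median 86.7, n = 13), it fell by 1.40 ± 0.47 on the log2 scale, adjusted p = 0.0259. From T3 to T4, at 0 to 118 CPM (median 14.1, n = 30), it fell by 2.61 ± 0.45 on the log2 scale, adjusted p = 1.29e-05, with 17 of 30 embryos below every embryo of T3.

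linc077, on chromosome IV, rose at the same step and was nearly absent after T4. It was at 0 to 84.6 CPM (median 0, n = 17) in T1, 3.93 to 152 CPM (median 64.3, n = 11) in T2 and 18.5 to 149 CPM (median 70.2, n = 13) in T3. It rose by 4.18 ± 0.70 on the log2 scale, adjusted p = 3.40e-05, between T1 and T2, and did not pass the test between T2 and T3. In T4 it was at 0 to 46.4 CPM (median 3.67, n = 30), with all 30 embryos below the T3 median and 24 below every embryo of T3, and it fell by 3.02 ± 0.51 on the log2 scale, adjusted p = 7.15e-06. The embryos of T3 and T5 did not overlap: the 18 embryos of T5 held 1 count of linc077 in all, the 25 of T6 held 3 and the 25 of T7 held 1. In block 5 it was at 45.3 CPM at 40 min, highest at 152 CPM at 90 min, at 31.9 CPM at 190 min and at 0.449 CPM at 260 min.

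linc007, also on the X, rose with these but stayed present to the end. It was at 0 to 212 CPM (median 12.6, n = 17) in T1, 21.6 to 227 CPM (median 136, n = 11) in T2 and 15.1 to 215 CPM (median 86.3, n = 13) in T3. The rise from T1 to T2 was 2.70 ± 0.64 on the log2 scale, adjusted p = 0.00133, with all 11 embryos of T2 above the T1 median. It was at 0 to 269 CPM (median 17.7, n = 30) in T4, a fall by 1.52 ± 0.43 on the log2 scale, adjusted p = 0.00525. Counts remained in 23 of 25 embryos of T7, at 0 to 178 CPM (median 44.4, n = 25). linc007 overlaps the annotated gene C09G1.4, linc006 the pseudogene F52D2.8, linc016 the F-box genes fbxc-19 and fbxa-3, linc052 the gene W04H10.6, and linc056, a late lincRNA described with the last ones, the gene ssr-2. Overlap here is of whole gene spans. The sources used here do not say whether the counting used strand, and a separate counter of ambiguous reads held 426440. Whether reads of such a pair were lost or mixed was not tested.

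**Figure D4:**
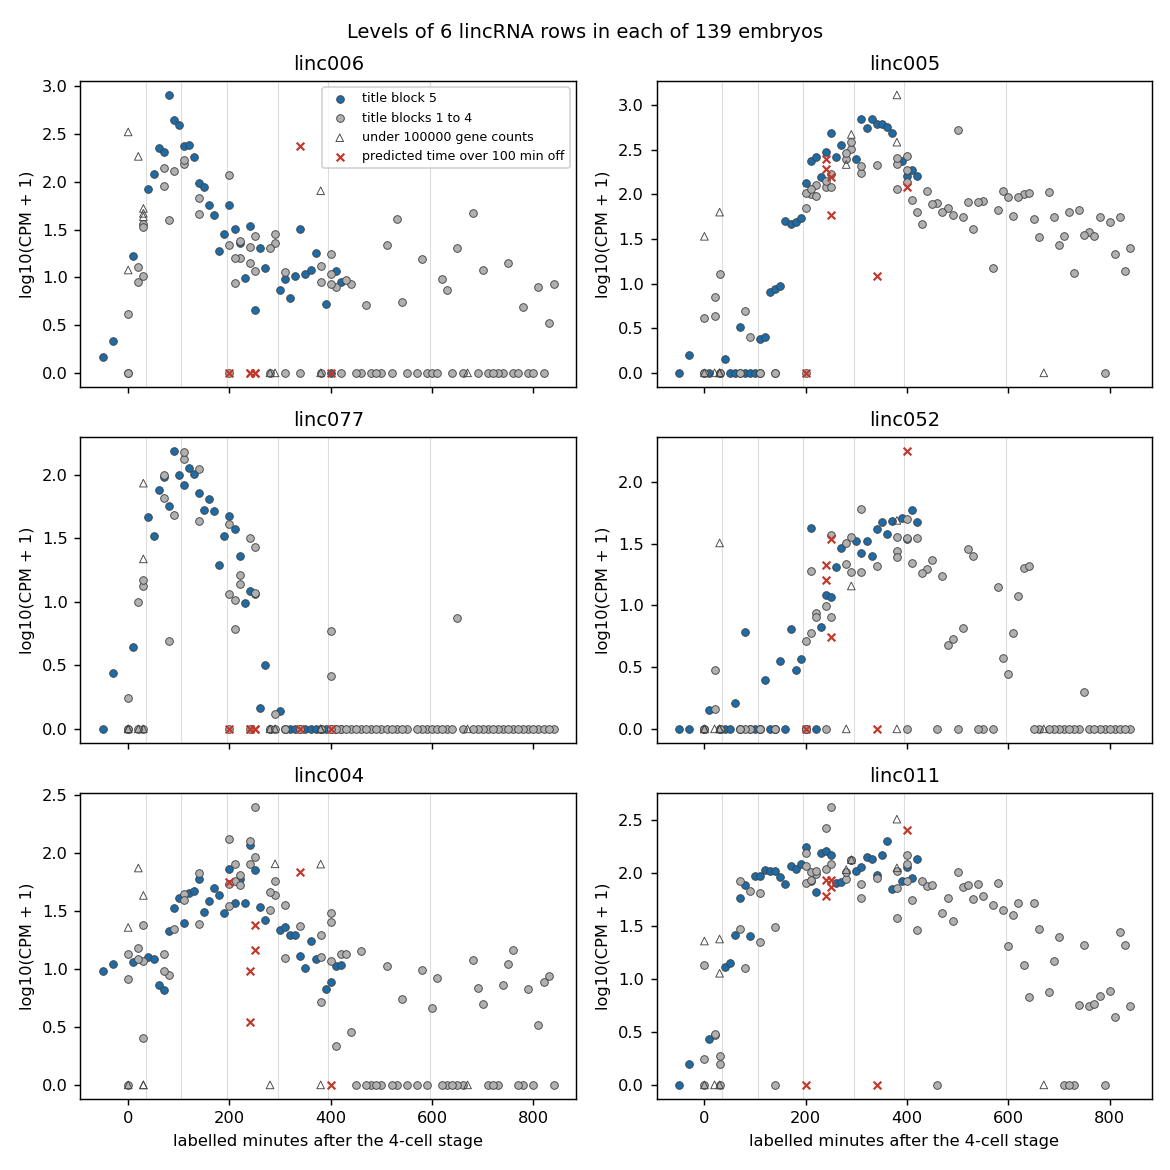
Level of 6 lincRNAs, as log10 of CPM plus 1 (y axes), against the labelled minute (x axes), 1 point per embryo: block 5 in blue, other blocks in grey, embryos under 100000 gene counts as open triangles and embryos whose predicted time was over 100 min off as crosses. The panels show linc006, linc077, linc004, linc005, linc052 and linc011. linc006 and linc077 are highest between 40 and 140 min, and linc005 from 200 to 390 min.

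From T2 to T3, 2 of 11 lincRNAs tested rose and 1, linc006, fell, where 10.4% of all rows tested rose and 14.1% fell. linc068, on chromosome II, was at 0 to 10.4 CPM (median 0, n = 11) in T2 and 0 to 32.4 CPM (median 16.4, n = 13) in T3, with 9 of 13 embryos above every embryo of T2. It rose by 2.77 ± 0.82 on the log2 scale, adjusted p = 0.0112. linc004, on the same chromosome, was at 5.58 to 40.5 CPM (median 11.7, n = 11) in T2 and 23.4 to 66.4 CPM (median 42.9, n = 13) in T3, and rose by 1.13 ± 0.40 on the log2 scale, adjusted p = 0.0311. All 13 embryos of T3 lay above the T2 median, and the call of linc004 sits at the threshold: its log2 difference was 0.99 (adjusted p = 0.0499) within block 5, under the fold of 2, and had an adjusted p of 0.0511 without the filter on low counts.

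linc012 and linc016, both on chromosome II, had their highest window in T3. linc012 was at 0 to 101 CPM (median 13.4, n = 11) in T2 and 5.90 to 153 CPM (median 46.6, n = 13) in T3, and the difference did not pass (adjusted p = 0.383). It was seen in 2 of 17 embryos of T1. In block 5 linc012 went from 1.89 CPM at 60 min to 55.6 CPM at 80 min and 72.1 CPM at 140 min. linc016 was at 0 to 41.3 CPM (median 14.7, n = 11) in T2 and 14.4 to 123 CPM (median 36.8, n = 13) in T3, with counts in all 13 embryos of T3 and an adjusted p of 0.178 for the step. Its T1 mean of 14.8 ± 41.4 CPM rests on shallow embryos with up to 4 counts, and was 0.367 ± 0.683 CPM in the 11 deeper ones.

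From T3 to T4, 5 of 13 lincRNAs tested fell and 1 rose, where 8.12% of all rows tested fell and 13.6% rose. The falls were those of linc006, linc007 and linc077, given above, and of linc012 and linc016. linc012 was at 0 to 58.1 CPM (median 6.55, n = 30) in T4, with 29 of 30 embryos below the T3 median, and fell by 2.25 ± 0.47 on the log2 scale, adjusted p = 1.81e-04. linc016 was at 0 to 41.8 CPM (median 16.6, n = 30) in T4 and fell by 1.32 ± 0.32 on the log2 scale, adjusted p = 0.00115. Neither had a count in the 25 embryos of T7, where 3 counts over the group would be 0.199 CPM. All 5 falls were called as well without the 7 embryos of missed time, with block as a covariate and within block 5.

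The single rise was that of linc005, on chromosome X, the lincRNA with the most counts of the class. It was at 0 to 3.93 CPM (median 0, n = 11) in T2, 0 to 53.2 CPM (median 7.12, n = 13) in T3, 0 to 488 CPM (median 162, n = 30) in T4 and 11.3 to 1297 CPM (median 319.6, n = 18) in T5. From T3 to T4 it rose by 3.49 ± 0.58 on the log2 scale, adjusted p = 6.35e-06, with 28 of 30 embryos of T4 above every embryo of T3. From T4 to T5 it rose further, by 1.05 ± 0.33 on the log2 scale, adjusted p = 0.0175, with 16 of 18 embryos above the T4 median. The block 5 series places its onset: 10 counts at 150 min gave 8.42 CPM, 75 counts at 160 min gave 49.2 CPM, and levels reached 257 CPM at 220 min, 353 CPM at 270 min and 699 CPM at 330 min. It was at 236 CPM at 390 min and 158 CPM at 420 min.

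linc005 then came down but did not disappear. Its level in T6 was 14.0 to 529 CPM (median 81.5, n = 25), and in T7 0 to 105 CPM (median 48.0, n = 25), with counts in 25 and 23 embryos. From T5 to T6 it fell by 1.56 ± 0.30 on the log2 scale, adjusted p = 5.16e-05, the only call among 8 lincRNAs tested in that step, where 9.21% of all rows tested fell and 16.9% rose. With block as a covariate the difference was -0.97 on the log2 scale with an adjusted p of 0.267, and within block 5, which holds 3 embryos of T6, the fall was called. Over all embryos and with no block, rises in that step numbered 0 in edgeR and 0 in DESeq2, and 2 of the 8 lincRNAs, linc005 and linc007, had an unadjusted p under 0.05. linc007 was called higher without the embryos under 100000 gene counts, by 1.26 ± 0.37 on the log2 scale (adjusted p = 0.00647), and linc022 was called higher within block 5, by 1.63 ± 0.41 (adjusted p = 0.0318). From T6 to T7 the log2 difference of linc005 was -0.84 ± 0.31 (adjusted p = 0.0264), under the fold of 2. It was past that fold, and called, with relative log expression size factors (-1.13 ± 0.31, adjusted p = 0.00283) and in DESeq2 (-1.12 ± 0.29, adjusted p = 4.89e-04), where the median of all genes tested in the step was -0.31 and -0.30, against -0.10 with TMM.

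linc011, on chromosome II, had a broad plateau. It was at 0 to 22.9 CPM (median 0.741, n = 17) in T1, 11.8 to 93.9 CPM (median 28.6, n = 11) in T2, 0 to 120.5 CPM (median 94.1, n = 13) in T3 and 0 to 423 CPM (median 103, n = 30) in T4. Counts were found in 11 of 17 embryos of T1, in all 11 of T2 and in 29 of 30 of T4. It was filtered out of the T1 to T2 step, and rose there by 5.33 ± 0.71 on the log2 scale (adjusted p = 4.07e-06) without the embryos under 100000 gene counts, and by 5.89 ± 0.96 (adjusted p = 3.60e-04) within block 5. It was at 0 to 324 CPM (median 100.2, n = 18) in T5, then 0 to 258 CPM (median 76.6, n = 25) in T6, and in T7 0 to 51.9 CPM (median 6.57, n = 25). The fall from T6 to T7 was 2.06 ± 0.38 on the log2 scale, adjusted p = 1.69e-05, with all 25 embryos of T7 below the T6 median. It was the only call among 4 lincRNAs tested in that step with edgeR after TMM scaling over all embryos, where 15.6% of all rows tested fell and 13.3% rose, and 2 of the 4 had an unadjusted p under 0.05. DESeq2 called 2 falls, those of linc011 and linc005, and 0 rises. linc168 was called higher in edgeR with block as a covariate and within block 1.

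From T4 to T5, 4 of 11 lincRNAs tested rose and 1 fell, where 8.8% of all rows tested rose and 7.36% fell. Besides linc005, the rises were of linc052, linc047 and linc168, and of these 5 calls the one lost without the embryos of missed time was that of linc168. linc052, on chromosome II, was at 0 to 5.49 CPM (median 0, n = 13) in T3, 0 to 41.7 CPM (median 9.71, n = 30) in T4 and 0 to 59.4 CPM (median 32.3, n = 18) in T5, and rose by 1.27 ± 0.39 on the log2 scale, adjusted p = 0.0144. linc047, on the same chromosome, was at 0 to 28.8 CPM (median 5.18, n = 30) in T4 and 0 to 128 CPM (median 14.2, n = 18) in T5, and rose by 1.38 ± 0.46 on the log2 scale, adjusted p = 0.0232. Its mean was highest in T6, at 22.1 ± 69.0 CPM, where 1 embryo at 347 CPM holds 62.8% of the window's sum. That embryo is one of those with a missed time, and without it the T6 mean was 8.55 ± 13.9 CPM and T5 was the highest window. No count of linc047 was found in the 25 embryos of T7. The fall was that of linc004, at 0 to 251 CPM (median 54.5, n = 30) in T4 and 0 to 79.8 CPM (median 17.6, n = 18) in T5, by 1.59 ± 0.34 on the log2 scale, adjusted p = 6.08e-04, and only 12 of 25 embryos of T7 had a count of it.

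linc008 and linc022 are among the 12 lincRNAs of highest mean level and were called in no step over all embryos with no block. linc008, on chromosome II, had a mean of 1.43 ± 3.50 CPM in T1 (n = 17), then 30.7 ± 16.6 CPM in T5 (n = 18), 30.9 ± 26.0 CPM in T6 (n = 25) and 10.6 ± 11.2 CPM in T7 (n = 25). linc022, on chromosome X, had a mean of 2.88 ± 5.34 CPM in T1, then 15.5 ± 11.7 CPM in T3 (n = 13), 27.6 ± 39.4 CPM in T6 and 12.7 ± 13.0 CPM in T7. Both differed among the 7 windows, with adjusted p = 4.50e-10 for linc008 and 7.34e-07 for linc022, and their tau of 0.542 and 0.524 lay below the median of 0.718 of protein-coding rows in their bin. With block as a covariate linc008 was called higher from T4 to T5, by 1.11 ± 0.43 on the log2 scale (adjusted p = 0.0457), where the difference without the block was 0.76 ± 0.35 (adjusted p = 0.111). Within block 5 linc022 was called higher from T2 to T3, by 1.35 ± 0.46 (adjusted p = 0.0209), and from T5 to T6 as given above.

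linc168, on chromosome V, was the only lincRNA with counts in all 139 embryos, and its level moved with depth. It was at 11.5 to 2237 CPM (median 51.7, n = 30) in T4 and 16.6 to 2703 CPM (median 64.5, n = 18) in T5, and rose by 1.33 ± 0.47 on the log2 scale, adjusted p = 0.0330. The windows overlapped, and 12 of 18 embryos of T5 lay above the T4 median. In the 13 embryos under 100000 gene counts its median was 433 CPM, from 2 to 240 counts, in 27 embryos of 100000 to 300000 gene counts 63.8 CPM, in 50 of 300000 to 1000000 it was 49.6 CPM, and in 49 above that 52.2 CPM. Pearson's r of log2(CPM + 1) with log10 gene counts was -0.495 over the 139 embryos, which share their windows and blocks with depth, and r lay between -0.0644 and 0.286 for the other named lincRNAs. Without the embryos under 100000 gene counts the T4 to T5 difference was 0.37 (adjusted p = 0.473), without the 7 embryos of missed time 0.72 (adjusted p = 0.149), with block as a covariate 0.50 (adjusted p = 0.450), and within block 5 it was -0.26 (adjusted p = 0.754). From T6 to T7 linc168 did not pass over all embryos (0.61 ± 0.42, adjusted p = 0.276), and was called higher with block as a covariate, by 1.28 ± 0.45 (adjusted p = 0.0278), and within block 1, which holds 18 embryos of T6 and 25 of T7, by 1.22 ± 0.45 (adjusted p = 0.0357). The part of depth in the level of linc168 was not tested.

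**Figure D5:**
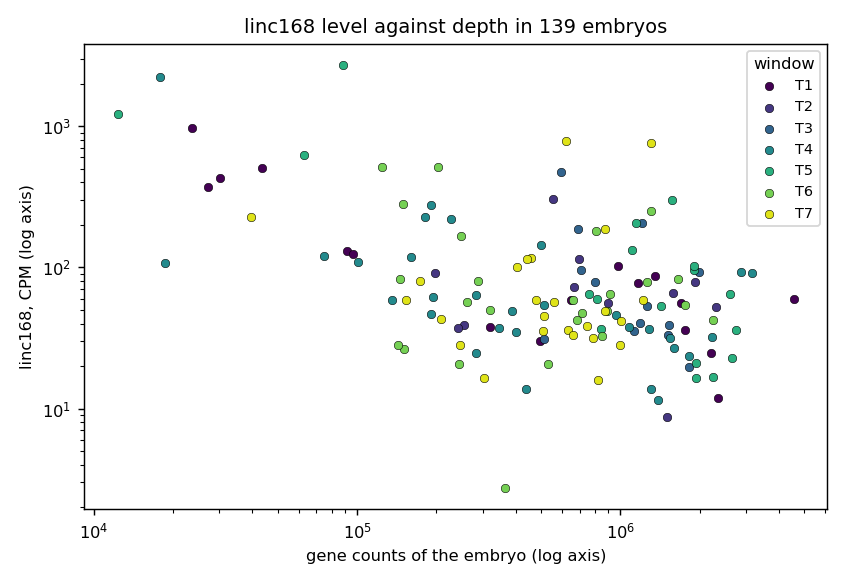
CPM of linc168 (y axis, log scale) against gene counts of the embryo (x axis, log scale), 1 point per embryo, coloured by window. The 13 embryos left of 100000 gene counts lie between 107 and 2703 CPM, and the medians of the deeper embryos are between 49.6 and 63.8 CPM.

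Between the first and the last window, 2 of 3 lincRNAs tested rose and none fell, where 34.8% of all rows tested rose and 33.9% fell. Of the lincRNAs tested, linc005 passed the filter on low counts through T7, so only a rise could be called for it. linc005 was at 0 to 62.2 CPM (median 0, n = 17) in T1 against 0 to 105 CPM (median 48.0, n = 25) in T7, with 23 of 25 embryos above the T1 median, and rose by 4.44 ± 0.71 on the log2 scale, adjusted p = 2.39e-07. With block as a covariate the linc005 difference was 8.93 with an adjusted p of 0.0465, from a fit in which 1 embryo of T1 shares the block of T7. linc007 rose by 1.43 ± 0.57 on the log2 scale, adjusted p = 0.0216. Its call depends on the scaling and on the block: the log2 difference was 0.76 (adjusted p = 0.228) with relative log expression size factors, 0.68 (adjusted p = 0.211) in DESeq2 and -0.29 (adjusted p = 0.924) with block as a covariate. Those size factors move the median of all genes in this comparison from -0.15 to -0.86, and relative to that median linc007 was higher by 1.57 with TMM and 1.61 with them, and linc005 by 4.59 and 4.56. None of the 3 lincRNAs tested fell at an unadjusted p under 0.05 in edgeR or in DESeq2. Without the filter on low counts 6 of 108 lincRNAs were called lower and 57 higher, against 3518 and 7737 of 16312 rows.

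A few further lincRNAs were singled out after their values were seen, for narrow profiles, few embryos or neighbours. linc121, on chromosome IV, was seen in 16 embryos, at 0 to 24.6 CPM (median 7.78, n = 11) in T2, in 4 embryos each of T1 and T3, and with no count in the 98 embryos from T4 on. linc025, on chromosome V, stood at 0 to 18.7 CPM (median 0, n = 25) in T6 but at 0 to 71.8 CPM (median 15.8, n = 25) in T7, with counts in 4 of 25 and 21 of 25 embryos. linc025 was singled out for this course and passed the filter on low counts through T7, so its call among windows is no separate support. Within block 1 its mean was 1.89 ± 4.70 CPM in the 18 embryos of T6 and 17.4 ± 16.3 CPM in the 25 of T7. linc056, on the X, had a mean of 8.15 ± 12.2 CPM in T6 (n = 25) and of 5.92 ± 8.22 CPM in T7 (n = 25), with 12 counts in all from T1 to T5. In T6 it was at 10.8 ± 13.4 CPM in the 18 embryos of block 1 and at 1.31 ± 2.94 CPM in the 7 of other blocks, which are the younger ones, so age and block cannot be told apart for it. Its overlapping neighbour ssr-2 was also late, at a mean of 2.58 CPM in T6 and 8.32 CPM in T7, with an r of 0.421 with linc056 over all embryos and 0.196 in block 5. Whether reads of this pair were lost or mixed was not tested. At the other end, linc163 had 20 counts in 2 embryos, 18 of them in the embryo of T6 whose predicted time missed its label, and 2 without that embryo.

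For the 6 lincRNAs with the highest window means under the naming rule, the 3 protein-coding rows of most similar course were found among 9803 tested, by Pearson correlation of log2(mean CPM + 1) over the 86 labelled times. These are descriptions, since all rows share embryos and depth. linc005 was most like pros-1, a Prospero-type homeobox gene (r = 0.910), and tbb-4, a beta-tubulin of ciliated neurons (r = 0.904). Mean levels of pros-1 were 3.96 CPM in T3, 117 CPM in T4, 264 CPM in T5 and 42.4 CPM in T7. linc077 was most like btb-11, a BTB domain gene (r = 0.961), and the F-box genes fbxb-10 (r = 0.959) and fbxb-13 (r = 0.954), of which btb-11 stood at 234 CPM in T2, 351 CPM in T3 and 16.5 CPM in T4. linc006 was most like fbxb-48 (r = 0.830), R11.4 (r = 0.827) and skr-12, a Skp1-related gene (r = 0.823). linc011 was most like W04A8.4 (r = 0.816) and ceh-20, a PBC-class homeobox gene (r = 0.796). For linc007 and linc168 the best values were 0.517 and 0.396, so no protein-coding row followed either closely. Without the embryos of missed time the r of linc005 with pros-1 was 0.909 and that of linc006 with fbxb-48 was 0.838.

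Neighbouring genes were taken from the order of genes in the annotation. For 35 lincRNAs with a mean of at least 1 CPM there were 58 pairs with a neighbour at or above that mean, 10 of them overlapping. Pearson's r of log2(CPM + 1) over the 139 embryos had a median of 0.199 and ran from -0.226 to 0.679, with 7 pairs at 0.5 or more and 16 below 0. No pairs of genes that are not neighbours were computed beside them. What neighbours share beyond the common time course was therefore not tested. In the 45 embryos of block 5 the median was 0.265, with 9 pairs at 0.5 or more and 12 below 0, and without the embryos of missed time it was 0.207, with 8 pairs at 0.5 or more. The lowest pair over all embryos, linc016 with math-41, had an r of 0.325 in block 5. The highest pairs were linc016 with fbxc-19, which it overlaps (r = 0.679), and with the next gene fbxb-10 (r = 0.631), both F-box genes. linc011 and bath-10, a gene with BTB and MATH domains, had an r of 0.589, and of 0.752 in block 5. linc006 and meg-3, which encodes a germ granule protein, had an r of 0.504, and of 0.679 in block 5, although meg-3 had its highest mean in T1, at 109 CPM, and linc006 in T2. linc068 and linc017, adjacent lincRNAs, both had their highest window in T3 and an r of 0.521. linc057 lies between the Hox genes ceh-13 and lin-39, with r of 0.366 and 0.131 over all embryos and of 0.382 and 0.432 in block 5, and was highest in T5, at 8.94 ± 7.83 CPM.

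RNA of the mother was looked for through the 6 vitellogenin rows, which encode yolk proteins made in the adult intestine. Their summed level had window medians from 258 CPM in T1 to 8083 CPM in T6 and reached 53673 CPM in 1 embryo of T5. Its correlation with the named lincRNAs over the 139 embryos lay between -0.434 for linc068 and 0.131 for linc007, and its part in their levels was not tested. The 5 rows of the sperm list had window medians of the sum of 0 to 5.48 CPM.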

How the data were processed

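Messenger RNA of 139 single embryos was amplified by CEL-Seq, and the authors deposited raw counts per gene and embryo in 1 table of 20784 rows, 20687 for genes, 92 for spike-in RNAs and 5 for counters of reads that name no gene. Per the submitters' processing notes CASAVA 1.8, Bowtie2 2.1.0 and HTSeq 0.5.4p3 were used, with no role given, and the build and the strand setting are not given in those notes or in the labels. The counters held 52.6% of all reads, the spike-ins 0.167% and genes 47.2%. No molecular identifiers are named, so the counts are of amplified reads. Reads with several alignments are listed at 0.

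The lincRNA rows were taken by name, and these members, the windows, the marker lists and the tests were chosen with earlier results of these data known. CPM was computed here from gene counts alone. Rows were matched to Ensembl release 115 by name, 20252 of them. The quasi-likelihood F-test of edgeR 4.0.16 (R 4.3.3), after TMM scaling and filterByExpr at a minimum count of 10, was run among the 7 windows with all embryos and per pair of windows with their embryos only, with Benjamini-Hochberg adjustment over all rows tested. The standard error of a log2 fold change is its size divided by the square root of F. In data simulated on T3 and T4, with 6114 genes, 21 of 100 genes changed 2-fold, 84 of 100 changed 4-fold and 4 of 5914 unchanged genes were called. A call needs an estimated fold of at least 2, and the median log2 estimate of the genes changed 2-fold was 0.868. Their number called therefore reflects that cutoff as well as the test.

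Named are, at most 20, the lincRNAs called both among windows and in a consecutive step, which are 12, and the 12 of highest mean CPM, 14 in all, and for the 6 highest of the first kind the 3 most similar protein-coding rows. Predicted times come from the profiles of the other embryos over 9376 genes, smoothed over time (Gaussian, SD 20 min) and read on a 10 min grid. Alternatives were relative log expression size factors, DESeq2 1.42.0, no filter, block as a covariate, blocks 1 and 5 alone, and leaving out shallow embryos or those of missed time, the last added after the data were seen for the shares, thinned numbers, tau, weighted minutes and correlations. Promoter sequences were not analysed here. Python 3.11.15 was used for tables and figures, with numpy 2.4.6, pandas 2.3.3 and matplotlib 3.10.9.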

Additional observations from a re-analysis of the deposited data

Results flagged for a closer look

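The lincRNA share of gene counts was compared within each block and window of 4 to 10 embryos. In 3 of 11 such groups 1 embryo stood apart from the rest, by its gap over the range of the group. Embryos of a group differ in depth and labelled age, so no chance rate is given for this count. In block 2, T5, the embryo stood at 0.310% and the next at 0.0837%. This is the embryo labelled 340 min with 88778 gene counts and a predicted time of 790 min, and 240 of its counts were of linc168. In block 5, T5, the embryo stood at 0.340% and the next at 0.120%, and it has 12338 gene counts. In block 3, T4, the embryo stood at 0.160% and the next at 0.0952%.

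Rows outside the linc names also carry a lincRNA annotation in Ensembl release 115, 14 in all, and the comparisons did not use them. Y41C4A.17 had 3010 counts and was late, at 0 to 535 CPM in T7 (median 151, n = 25) with counts in 24 of 25 embryos, and at 5.93 ± 11.7 CPM in T6 (n = 25). Y9D1A.1 had 2838 counts with its highest mean in T5, 41.1 ± 31.5 CPM (n = 18), and F40H3.6 had 1712 counts with its highest mean in T4, 24.2 ± 18.9 CPM (n = 30). H36L18.2, which is lep-5, a noncoding RNA known from developmental timing, had 1692 counts and means of 29.6 ± 28.9 CPM in T6 and 25.6 ± 24.6 CPM in T7. W09C5.11 had 164 counts and is annotated as linc-1, while the row linc001 had 0 counts. F13H8.15, annotated as linc-4, had 34 counts beside 2845 for linc004. The other rows had 129 counts (H09G03.1), 24 (F31A9.2), 15 (Y48C3A.1), 12 (Y39A3B.3), 9 (T09F5.12) and 3 or fewer.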

How the results depend on the processing

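Of the counts of called lincRNAs, detections, highest windows and shares, 122 values under other settings stayed within the limits set and 31 moved. A count had to keep within a set ratio of the main count, and a share within 1 SD of the main window mean. The share limit was wide: without the shallow embryos the T1 share was 0.0123%, against 0.0360 ± 0.0411%, and it was counted as staying. All shares stayed, so the tally does not measure how stable they are. Without the filter on low counts 119 lincRNAs were called among windows. Rises and falls then numbered 27 and 1 of 85 lincRNAs from T1 to T2, against 3450 and 1002 of 15336 rows. They were 5 and 8 of 94 from T2 to T3, against 1242 and 1759 of 15760. From T3 to T4 they were 14 and 12 of 122, against 2372 and 1628 of 16682. For T5 against T4 they were 15 and 13 of 125, against 1951 and 1392 of 17152. For T6 against T5 they were 24 and 12 of 121, against 3370 and 1582 of 16919. For T7 against T6 they were 19 and 24 of 118, against 2871 and 2465 of 16682. Between T1 and T7 they were 57 and 6 of 108, against 7737 and 3518 of 16312. More rows entered these tests, and rises outnumbered falls among all rows too from T1 to T2 and between T1 and T7. Within block 5 there were 4 rises among 14 lincRNAs from T2 to T3, against 1307 of 6677 rows. Of these, linc011, linc017 and linc022 were called there and not over all blocks. Block 5 also had 2 rises among 14 for T5 against T4, against 1072 of 6606 rows. It had 1 among 22 for T6 against T5, against 328 of 8925 rows. Within block 1 there was 1 rise among 4 from T6 to T7, that of linc168, against 703 of 5572 rows. Without the embryos of missed time 2 of 15 lincRNAs tested fell from T4 to T5, against 739 of 6939 rows. They were linc004 and linc068 (-1.50, adjusted p = 0.00657). linc068 also fell within block 5 from T3 to T4 (-1.15, adjusted p = 0.0265). Without the shallow embryos 1 of 9 lincRNAs tested, linc007, rose from T5 to T6, against 1294 of 7245 rows. Between T1 and T7 all 4 tested rose, linc005, linc007, linc025 and linc168, against 2695 of 7051 rows. linc025 held 1 count in T1 and 257 in T7. linc005 averaged 2.27 CPM in the deeper embryos of T1 and 50.2 CPM in those of T7. Both passed the filter on low counts through T7, so only a rise could be called for them. With block as a covariate 0 of 8 fell from T5 to T6, against 19 of 6941 rows, with 2 at an unadjusted p under 0.05. From T6 to T7 1 of 4 rose, against 576 of 5288 rows, and between T1 and T7 1 of 3, against 584 of 6333. From T4 to T5 5 of 11 rose, linc007 and linc008 among them, against 1138 of 6684 rows. With relative log expression size factors, and with DESeq2, 2 of 4 fell from T6 to T7, linc011 and linc005, against 1118 and 1158 of 5288 rows. Under both settings 1 of 3 rose between T1 and T7, against 1924 and 1930 of 6333 rows. DESeq2 also called linc002 higher from T2 to T3 (1.46, adjusted p = 0.0484). Highest windows in T6 or T7 numbered 17 under the stricter minimum and 2 by the median over times, and the same window as before was highest for 63 of 63 and 41 of 70 lincRNAs, and for 82 of 88 without the embryos of missed time. The direction turned for linc168 from T4 to T5 within block 5 (-0.26) and for linc007 between T1 and T7 with block as a covariate (-0.29). The linc168 difference from T4 to T5 had an adjusted p of 0.0506 with relative log expression size factors, and its adjusted p among windows ran from 9.21e-04 to 0.0479 over the alternatives. Leaving out the embryos of missed time from the shares, thinned numbers, tau, weighted minutes and correlations was chosen after seeing the data. The causes were not tested.

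No paired analysis was possible because the labels give no replicate numbers that tie embryos of different windows together. Depth limits the class: 3 counts over a window correspond to 0.116 to 0.277 CPM, and 129 lincRNAs averaged under 1 CPM.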
